A study of Mus musculus with 12 samples.

Results

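The circadian clock genes of the mouse forebrain were examined in wild-type mice and in mice lacking part of Shank2, with and without early memantine. The genes were chosen by symbol and are Arntl, Per1, Per2, Per3, Nr1d1, Nr1d2, Ciart, Bhlhe41, Dbp and Tef, which are 10 of the 19312 genes in the deposited table, and each had 1 row there. Their positions below are those of GENCODE M21 (GRCm38), and all are protein-coding. All 10 passed the filter on low values in every comparison.

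RNA-Seq was performed on 12 male C57BL/6N mice at postnatal day 25, 3 mice in each of 4 groups and no brains pooled. WT-Veh and WT-Mem mice were wild type, and KO-Veh and KO-Mem mice carried a homozygous deletion of Shank2 exons 6 and 7. Shank2 is a scaffold protein of excitatory synapses. Memantine, a blocker of the NMDA type of glutamate receptor, was given by mouth at 20 mg/kg, 2 doses per day, from postnatal day 7 to 21 in 0.1% saccharin, and the vehicle groups received no memantine on the same days. The animals lived under a 12 h light and dark cycle, but the hour at which each brain was taken is not given in the sources used here, so time of day and group cannot be told apart. The sample labels name whole brain, whereas the methods describe forebrain freed of the cerebellum and the brain stem below it. All 9 forebrain markers examined were present and summed to between 22104 and 24836 normalized counts per mouse, and 9 cerebellar and hindbrain markers that were measured summed to between 2199.8 and 3031 in 11 mice and to 4815 in KO-Veh replicate 3. That mouse stands apart, and it also had the lowest Per2 and Arntl of its group. It had the highest Nr1d1, Nr1d2, Per3, Ciart and Bhlhe41 of its group. The part of such tissue in the clock gene values was not tested, and the differences that rest on this mouse are given with and without it.

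The circadian clock is a feedback loop of transcription that runs in almost every cell and is set in the brain by the suprachiasmatic nucleus. The protein encoded by Arntl (also called Bmal1) pairs with CLOCK or NPAS2, binds E-box sequences, and switches on the Per and Cry genes, whose proteins then block it. The nuclear receptors encoded by Nr1d1 and Nr1d2 (REV-ERB alpha and beta) repress Arntl through sequences called RREs, and the PAR bZIP factors DBP and TEF act on D-boxes in output genes. In tissues with a running clock Arntl and Dbp transcripts therefore peak at opposite times of day, and Per1 and Per2 are in addition switched on quickly by neuronal activity and by glucocorticoids.

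These elements were looked for in the promoters, because the genes are grouped below by the part of the loop that they serve. Windows from 250 bases before to 50 bases after the start site were taken from RefSeq (GRCm38.p6), which held 12 windows for 9 of the 10 genes. The letters searched on both strands were CACGTG for the E-box, CACGTT for the related E'-box, TTANGTAA for the D-box, TAGGTCA for the RRE and TGACGTCA for the cyclic AMP response element. The 6 windows printed here each hold at least 1 match, in capitals, and are written 5′ to 3′ in the direction of the gene.
Arntl (chr7:113207261-113207560, + strand): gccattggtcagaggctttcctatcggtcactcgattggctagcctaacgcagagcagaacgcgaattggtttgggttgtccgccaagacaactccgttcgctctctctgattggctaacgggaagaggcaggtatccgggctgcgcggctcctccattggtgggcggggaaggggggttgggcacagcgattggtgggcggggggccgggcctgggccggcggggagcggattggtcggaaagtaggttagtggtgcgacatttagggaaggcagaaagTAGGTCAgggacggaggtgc
Per1 (chr11:69098699-69098998, + strand): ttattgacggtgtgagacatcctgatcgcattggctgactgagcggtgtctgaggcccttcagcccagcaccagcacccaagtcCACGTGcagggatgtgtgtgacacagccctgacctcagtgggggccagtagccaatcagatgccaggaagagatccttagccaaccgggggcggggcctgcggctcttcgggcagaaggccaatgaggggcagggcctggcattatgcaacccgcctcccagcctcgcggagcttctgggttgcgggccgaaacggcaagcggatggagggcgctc
Per3 (chr4:151044616-151044915, - strand): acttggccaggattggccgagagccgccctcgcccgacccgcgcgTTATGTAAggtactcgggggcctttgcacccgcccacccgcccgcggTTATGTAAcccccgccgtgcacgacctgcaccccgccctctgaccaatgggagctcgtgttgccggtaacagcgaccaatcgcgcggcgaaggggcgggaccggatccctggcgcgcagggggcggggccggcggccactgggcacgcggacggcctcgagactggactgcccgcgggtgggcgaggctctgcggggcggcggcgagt
Nr1d1 (chr11:98775328-98775627, - strand): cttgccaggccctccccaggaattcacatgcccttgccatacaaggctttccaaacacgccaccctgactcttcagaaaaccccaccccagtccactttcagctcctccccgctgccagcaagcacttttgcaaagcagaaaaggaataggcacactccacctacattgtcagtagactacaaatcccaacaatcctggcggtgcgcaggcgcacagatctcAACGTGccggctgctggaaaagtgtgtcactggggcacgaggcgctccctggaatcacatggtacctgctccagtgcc
Ciart (chr3:95882179-95882478, - strand): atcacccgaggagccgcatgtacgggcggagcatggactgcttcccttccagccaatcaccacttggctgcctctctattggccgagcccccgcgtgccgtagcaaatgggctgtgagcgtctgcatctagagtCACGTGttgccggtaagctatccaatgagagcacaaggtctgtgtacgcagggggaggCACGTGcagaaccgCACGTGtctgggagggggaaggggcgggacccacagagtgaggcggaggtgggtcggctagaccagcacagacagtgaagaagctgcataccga
Bhlhe41 (chr6:145865371-145865670, - strand): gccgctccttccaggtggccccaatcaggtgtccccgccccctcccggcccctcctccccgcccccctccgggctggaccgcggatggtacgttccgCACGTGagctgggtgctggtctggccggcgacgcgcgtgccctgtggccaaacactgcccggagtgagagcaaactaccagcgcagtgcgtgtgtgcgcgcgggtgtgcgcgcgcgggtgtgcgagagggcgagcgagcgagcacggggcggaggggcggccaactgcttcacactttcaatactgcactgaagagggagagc

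An E-box stood in 5 of the 12 windows, against 7.15% of all 32851 promoter windows. Ciart had 3 E-boxes, at positions -116, -58 and -44 from the start site, Per1 had 1 at -166, Bhlhe41 had 1 at -153, and both Tef windows had 1, at -127 and -138. Nr1d1 had an E'-box, read on the opposite strand, at -28, and 4.685% of all windows held one. The bases just after that RefSeq start site were not found in any GENCODE M21 transcript of Nr1d1. Per3 was the member with D-boxes, at -205 and -158, a motif found in 2.323% of all windows. Arntl was the member with an RRE, at position 31 after the start site in 1 of its 2 windows, against 2.606% of all windows. The cyclic AMP response element, present in 1.79% of all windows, was in 0 of the 12, and the windows of Dbp and Nr1d2 held none of the 5 motifs. A match of letters is a description of the window and not a measured binding site.

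**Figure D1:**
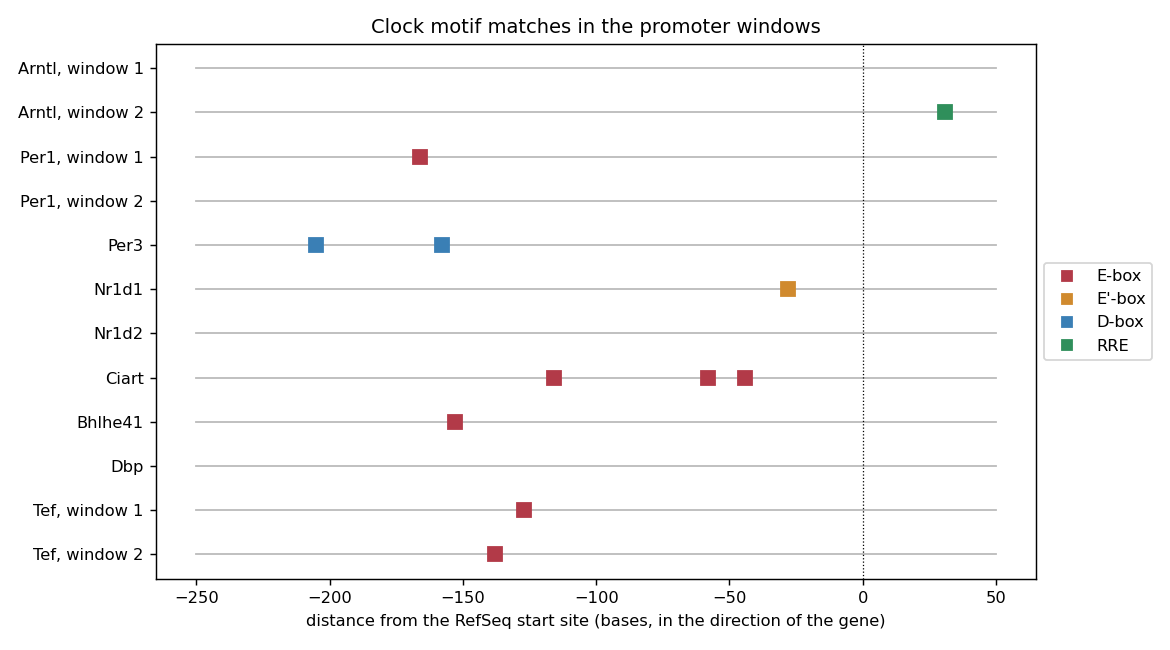
Each grey line is a promoter window of a clock gene, in bases from the RefSeq start site (dotted line), and each square is a motif match. The 3 E-boxes of Ciart lie within 116 bases of the start site, and the 2 D-boxes of Per3 lie farther out.

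Values are normalized read counts, on a linear scale, that the authors scaled to be comparable across the 12 mice. In these units 1 read, taken as the median of the values near 1 in each mouse, was worth between 0.872 and 1.13. The lowest member value in any mouse was 298 (Ciart, WT-Veh replicate 2). Shank2, the targeted gene, was at 8248, 7427 and 8325 in WT-Veh mice, 7936, 8548 and 7156 in WT-Mem mice, 3053, 3006 and 2723 in KO-Veh mice and 2817, 2706 and 3178 in KO-Mem mice, and its pooled difference between genotypes was -1.45 (SE 0.06, adjusted p = 6.01e-09, limma), so the labels and the targeted gene go together. Per kilobase of exon, the mean levels over the 12 mice were highest for Tef (1425 normalized counts) and lowest for Bhlhe41 and Arntl (122 each), with Dbp at 682, Per1 at 612 and Per2 at 319.

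Differences between groups were tested with limma on the log2 of the normalized count plus 1, over all genes with a mean of at least 10, and a gene was called at an adjusted p under 0.05. None of the 10 clock genes was called in any of the 9 comparisons (0 of 10 in each). The share of all genes called was 0.0283% for KO-Veh against WT-Veh, 0.068% for KO-Mem against WT-Mem and 10.5% for the genotypes over both treatments, where the 6 knockout mice were set against the 6 wild-type mice with treatment in the fit. It was 0% for KO-Mem against KO-Veh, 0.0114% for WT-Mem against WT-Veh, 0% for memantine over both genotypes and 0% for the interaction, and 3.37% and 0.0227% for KO-Mem against WT-Veh and WT-Mem against KO-Veh. The study used DESeq2 at the same threshold and called many more genes between the genotypes under either treatment, where limma called 5 and 12. It also called more genes for memantine within either genotype. The absence of calls among the members therefore holds for these limma fits only. The study's gene set enrichment listed rhythmic process among the top sets raised in KO-Veh against WT-Veh mice. It also listed rhythmic process and circadian rhythm among the top sets lowered in WT-Mem against KO-Veh mice. In that comparison neither passed the study's false discovery rate limit of 0.05. The part of these members in those results was not tested. At an unadjusted p under 0.05 the limma fit over both treatments picked 3 of 10 members, Per2, Nr1d1 and Bhlhe41, beside 29.4% of all genes, so the members' share was near that background. In the pairs of groups it picked Bhlhe41 and Per2 for KO-Veh against WT-Veh (14.4% of all genes), Nr1d1 and Per2 for KO-Mem against WT-Mem (21%), Nr1d1 for KO-Mem against KO-Veh (8.88%), Nr1d1 and Per2 for KO-Mem against WT-Veh (25.9%) and Bhlhe41 for WT-Mem against KO-Veh (8.94%). For memantine over both genotypes it picked Nr1d1, beside 8.68% of all genes.

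The ranges of the groups were compared as well. Groups that did not overlap were found between KO-Veh and WT-Veh mice for Nr1d1 and Bhlhe41 (20.4% of all genes), between KO-Mem and WT-Mem mice for 0 of 10 (26.2%), between KO-Mem and KO-Veh mice for Nr1d1 (13.9%) and between WT-Mem and WT-Veh mice for 0 of 10 (9.34%). Between KO-Mem and WT-Veh mice they were found for Nr1d1 and Nr1d2 (31.1%) and between WT-Mem and KO-Veh mice for Bhlhe41 (14.9%). All 6 knockout mice and all 6 wild-type mice overlapped for each member, whereas 4.06% of all genes did not overlap there. The comparisons reuse the same mice as controls, and their values are therefore not independent of each other.

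**Figure D2:**
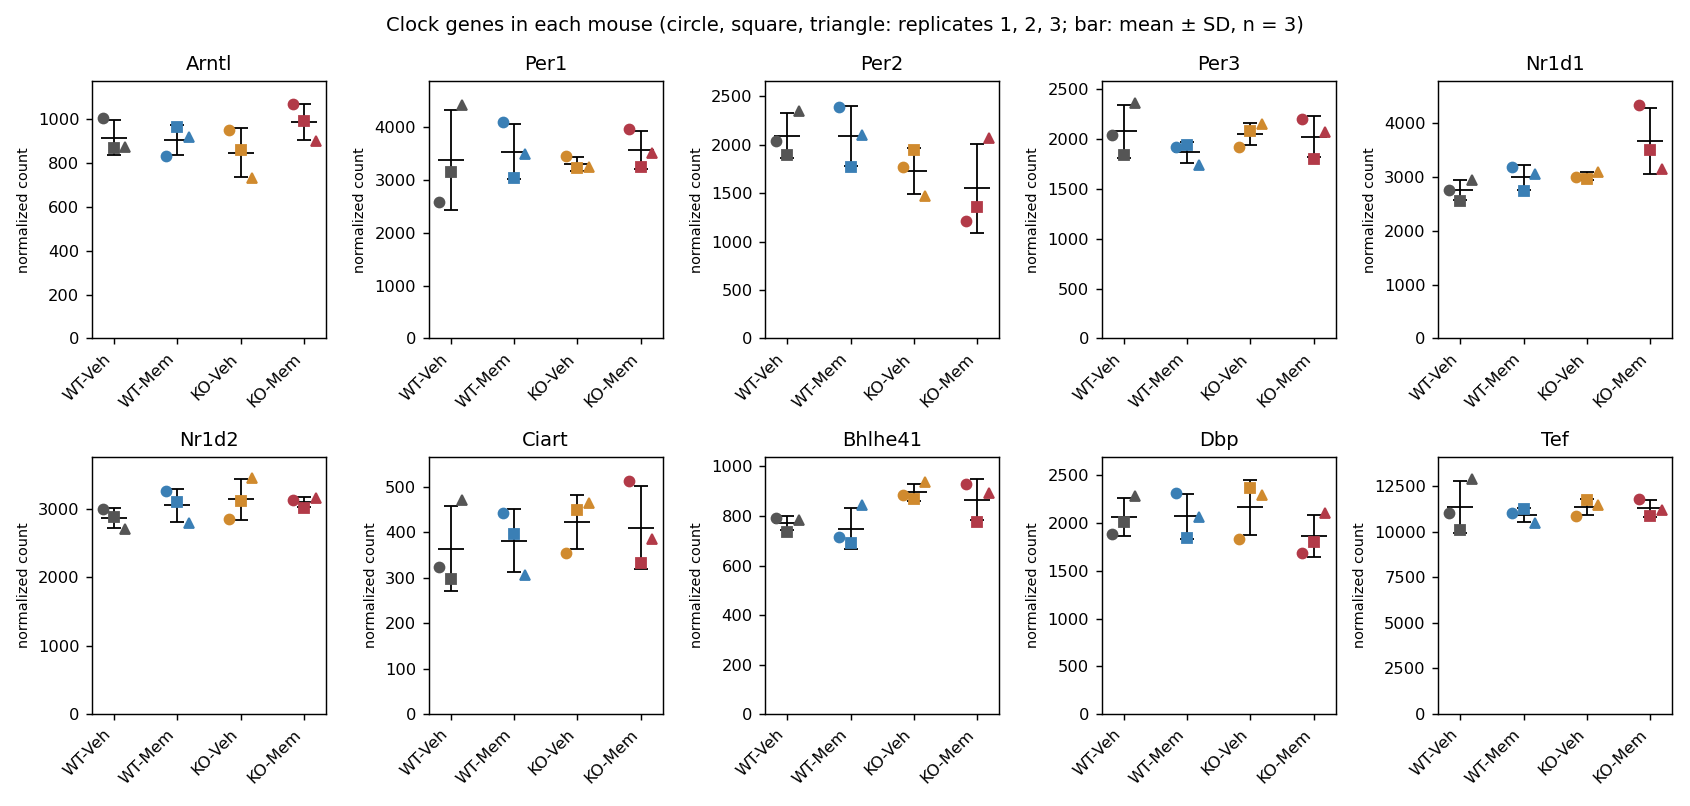
Normalized read count of each clock gene (y axis, from 0) in every mouse of the 4 groups (x axis), with the mean ± SD of 3 mice as a bar. Per2 was lowest in KO-Mem replicates 1 and 2, Nr1d1 highest in KO-Mem replicate 1, and most other genes overlapped across all groups.

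Arntl (ENSMUSG00000055116, chr7:113207465-113314126, plus strand), the activator, was at 1007, 869 and 876 in WT-Veh mice, 831, 964 and 921 in WT-Mem mice, 954, 861 and 732 in KO-Veh mice and 1069, 992 and 902 in KO-Mem mice. The groups overlapped, with the highest mouse (KO-Mem replicate 1) and the lowest (KO-Veh replicate 3) both being knockouts. The difference between genotypes was -0.12 (SE 0.11) with vehicle and 0.12 (SE 0.09) with memantine, with limma adjusted p = 0.639 and 0.471, and the difference between these differences was 0.24 (SE 0.15, adjusted p = 0.947). Without KO-Veh replicate 3 the difference with vehicle was -0.014 (adjusted p = 0.975, limma). Its partners Clock and Npas2 differed between knockouts and wild type by 0.12 (SE 0.08, adjusted p = 0.346) and 0.14 (SE 0.07, adjusted p = 0.211) over both treatments, and neither was called.

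Per2 (ENSMUSG00000055866, chr1:91415982-91459324, minus strand), a repressor of the loop and a gene that responds to neuronal activity, had the largest difference between genotypes among the members. Its values were 2036, 1899 and 2353 in WT-Veh mice, 2389.6, 1775 and 2103 in WT-Mem mice, 1772, 1948 and 1475 in KO-Veh mice and 1217, 1359 and 2072 in KO-Mem mice. The mean was 2096 ± 233 (SD, n = 3) in WT-Veh, 2089 ± 307 in WT-Mem, 1731 ± 239 in KO-Veh and 1549 ± 458 in KO-Mem mice. KO-Mem replicates 1 and 2 and KO-Veh replicates 1 and 3 lay below every wild-type mouse, while KO-Mem replicate 3 lay inside the wild-type range, so the groups overlapped. The log2 difference, KO against WT, was -0.28 (SE 0.11, adjusted p = 0.294) with vehicle, -0.46 (SE 0.18, adjusted p = 0.187) with memantine and -0.37 (SE 0.12, adjusted p = 0.0619) over both, all by limma. Without KO-Mem replicate 3 the difference was -0.69 with memantine (adjusted p = 0.0102) and -0.48 over both treatments (adjusted p = 0.00379, limma), which are calls. Leaving out that mouse raised the calls over all genes too, from 12 to 1911 (10.8% of those tested) with memantine and from 1856 to 3263 (18.5%) over both treatments. Without KO-Veh replicate 3 the pooled difference of Per2 was -0.31 (adjusted p = 0.152, limma) and that with vehicle was -0.17 (adjusted p = 0.659, limma). Over the alternatives and left-out mice the adjusted p of the pooled difference ran from 0.00379 to 0.155.

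The 12 immediate early genes examined, transcripts such as Fos and Arc that rise within minutes of neuronal activity, are given beside Per2. Their summed normalized count was 15763, 26371 and 35806 in WT-Veh mice, 32106 (replicate 1), 27950.2 and 28757 in WT-Mem mice, 26505, 20235 and 10913 in KO-Veh mice and 11695, 16805 and 24553 in KO-Mem mice. KO-Mem replicate 3 had the highest sum of its group, as it had the highest Per2, and KO-Veh replicate 3 had the lowest of its group in both. In contrast, WT-Veh replicate 1 had the lowest sum of its group but not the lowest Per2. KO-Veh replicate 1 had the highest sum of its group but not the highest Per2. Over both treatments 12 of 12 had a difference below 0 in knockouts (median -0.45 against 0.00 for all genes tested), 6 of them at an unadjusted p under 0.05 (29.4% of all genes) and 0 called by limma, and their part in the Per2 difference was not tested.

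Per1 (ENSMUSG00000020893, chr11:69095217-69109960, plus strand), the period gene most readily switched on by stimuli, was at 2573, 3145 and 4409.7 in WT-Veh mice, 4085, 3039 and 3480.0 in WT-Mem mice, 3457, 3225 and 3234 in KO-Veh mice and 3962, 3241 and 3499 in KO-Mem mice. WT-Veh mice spanned the whole range, from the lowest to the highest of the 12, and the pooled difference between genotypes was 0.01 (SE 0.11, adjusted p = 0.956, limma). Per3 (ENSMUSG00000028957, chr4:151003652-151044665, minus strand), a period gene that is dispensable for the rhythm itself, was at 2036, 1838 and 2361 in WT-Veh mice, 1917, 1941 and 1744 in WT-Mem mice, 1925, 2077 and 2148 in KO-Veh mice and 2204, 1795 and 2075 in KO-Mem mice. The groups overlapped, and the pooled difference was 0.05 (SE 0.07, adjusted p = 0.664, limma), or 0.03 without KO-Veh replicate 3.

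**Figure D3:**
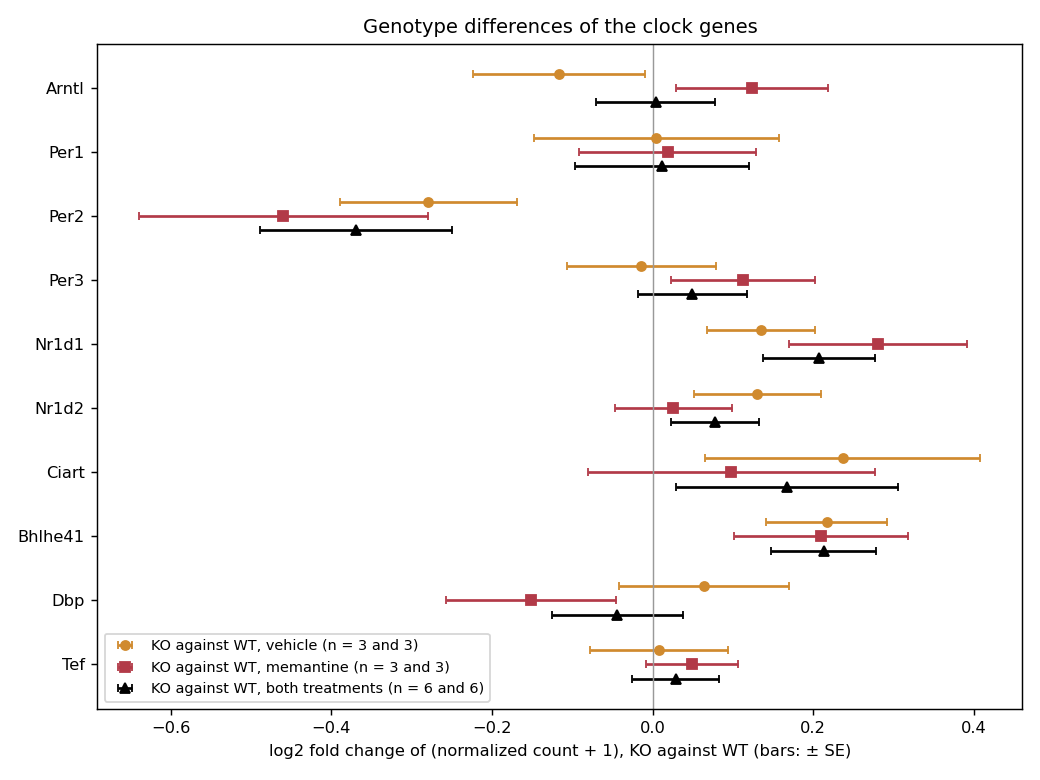
Log2 difference of each clock gene between knockout and wild-type mice (x axis, ± SE) with vehicle, with memantine and over both treatments. Per2 lay at -0.28, -0.46 and -0.37, Nr1d1 and Bhlhe41 lay above 0 in all 3, and none was called.

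Nr1d1 (ENSMUSG00000020889, chr11:98767932-98775333, minus strand), the repressor of Arntl, was at 2757, 2561 and 2939 in WT-Veh mice, 3186, 2734 and 3063 in WT-Mem mice, 2998, 2963 and 3092 in KO-Veh mice and 4338, 3496 and 3156 in KO-Mem mice. Its mean was 2752 ± 189 (SD, n = 3) in WT-Veh, 2994 ± 234 in WT-Mem, 3018 ± 66.7 in KO-Veh and 3663 ± 609 in KO-Mem mice. KO-Mem replicate 1 stood above all other mice, all 3 KO-Veh mice stood just above all WT-Veh mice, and KO-Mem mice lay above KO-Veh mice without overlap. The log2 difference was 0.13 (SE 0.07, adjusted p = 0.392) between genotypes with vehicle, 0.28 (SE 0.11, adjusted p = 0.192) with memantine and 0.21 (SE 0.07, adjusted p = 0.0687) over both. KO-Mem against KO-Veh gave 0.27 (SE 0.10, adjusted p = 0.555, limma), and memantine over both genotypes gave 0.19 (SE 0.07, adjusted p = 0.473, limma). Without KO-Mem replicate 3 the genotype difference was 0.38 with memantine (adjusted p = 0.0462) and 0.26 over both treatments (adjusted p = 0.0146, limma), in fits that called 10.8% and 18.5% of all genes. Without KO-Veh replicate 3 the pooled difference was 0.20 (adjusted p = 0.145, limma) and that with vehicle was 0.12 (adjusted p = 0.690, limma).

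In the annotation 263 exon bases of Nr1d1, or 8.55%, are shared with Thra on the other strand. Thra, a thyroid hormone receptor gene, was at 22261, 21943 and 21052 in WT-Veh mice, 23242, 23490.3 and 25992 in WT-Mem mice, 29191, 24279.6 and 27841 in KO-Veh mice and 33465, 32262 and 26789 in KO-Mem mice. Thra rose in knockouts by 0.33 over both treatments (SE 0.06, adjusted p = 0.00996, limma), and KO-Mem replicate 1 was again the highest mouse. Thra had 5632 normalized counts per kilobase, more than Nr1d1. The library kit is not named as one that marks strand, so reads from the shared bases may not have been told apart.

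**Figure D4:**
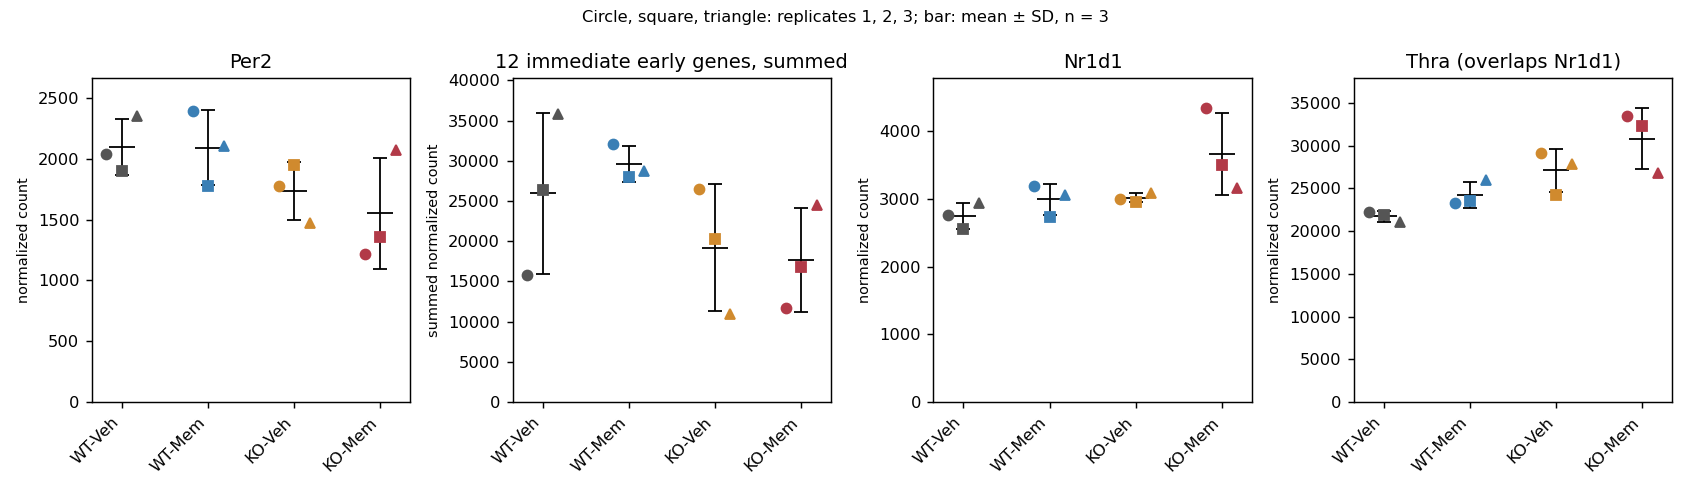
Per mouse (points) and as mean ± SD (bars), the normalized counts of Per2, the sum of 12 immediate early genes, Nr1d1 and Thra (y axes, from 0). KO-Mem replicate 3 was the highest of its group for Per2 and the immediate early genes and the lowest for Nr1d1 and Thra.

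Nr1d2 (ENSMUSG00000021775, chr14:18204054-18239127, minus strand), the paralogue of Nr1d1, was at 2995, 2881 and 2706 in WT-Veh mice, 3263, 3097 and 2794 in WT-Mem mice, 2847, 3121 and 3446 in KO-Veh mice and 3133, 3012 and 3157 in KO-Mem mice. KO-Mem mice lay above WT-Veh mice without overlap, and the pooled genotype difference was 0.08 (SE 0.05, adjusted p = 0.360, limma), or 0.04 without KO-Veh replicate 3. Bhlhe41 (ENSMUSG00000030256, chr6:145858243-145865558, minus strand), which encodes the E-box repressor DEC2, was at 790.0, 737 and 784 in WT-Veh mice, 715, 690.1 and 844 in WT-Mem mice, 884, 867 and 935 in KO-Veh mice and 931, 774 and 894 in KO-Mem mice. KO-Veh mice stood above all WT-Veh mice and above all WT-Mem mice, whereas KO-Mem replicate 2 fell inside the wild-type range. The log2 difference was 0.22 (SE 0.08, adjusted p = 0.257) with vehicle, 0.21 (SE 0.11, adjusted p = 0.293) with memantine and 0.21 (SE 0.07, adjusted p = 0.0513) over both, by limma. The pooled adjusted p of Bhlhe41 (limma) ran from 0.0315 to 0.126 over the alternatives and left-out mice, on either side of the threshold. It was 0.0315 without WT-Mem replicate 3 and 0.0483 without KO-Mem replicate 2, in fits that called 6.59% and 4.27% of all genes. Without KO-Veh replicate 3 it was 0.124, where 2.99% of all genes were called. The difference of Bhlhe41 with vehicle was then 0.19 (adjusted p = 0.596, limma). Ciart (ENSMUSG00000038550, chr3:95878503-95882251, minus strand), also a repressor of the CLOCK complex, was at 323, 298 and 472 in WT-Veh mice, 443, 396 and 306 in WT-Mem mice, 355, 449.8 and 465 in KO-Veh mice and 513, 333 and 387 in KO-Mem mice. The groups overlapped, and the pooled difference was 0.17 (SE 0.14, adjusted p = 0.440, limma), or 0.13 without KO-Veh replicate 3.

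Dbp (ENSMUSG00000059824, chr7:45705088-45710203, plus strand), the clock output gene with a strong daily rhythm in most tissues, was at 1889.9, 2012 and 2288 in WT-Veh mice, 2310.1, 1838 and 2067 in WT-Mem mice, 1830.5, 2364 and 2296 in KO-Veh mice and 1688, 1798 and 2109 in KO-Mem mice. The groups overlapped, and the genotype difference was 0.06 (SE 0.11, adjusted p = 0.813) with vehicle and -0.15 (SE 0.11, adjusted p = 0.431) with memantine, by limma. KO-Mem against KO-Veh gave -0.21 (SE 0.11, adjusted p = 0.588, limma). Tef (ENSMUSG00000022389, chr15:81802421-81826863, plus strand), its relative, was at 11018, 10099.5 and 12902 in WT-Veh mice, 10988, 11210.3 and 10466 in WT-Mem mice, 10856, 11740.4 and 11448 in KO-Veh mice and 11784, 10851 and 11176 in KO-Mem mice. WT-Veh mice spanned the whole range, and the pooled difference was 0.03 (SE 0.05, adjusted p = 0.761, limma). Dbp shares 539 exon bases with Sphk2 on the other strand and Bhlhe41 shares 1280 with Gm43909. These reads may not have been told apart either. Dbp and Arntl lie on chromosome 7, 98.3 and 30.7 Mb from Shank2.

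Memantine in wild-type mice left every member uncalled. The differences ran from -0.15 for Per3 (SE 0.10) to 0.12 for Nr1d1 (SE 0.08), with adjusted p of at least 0.978 for each member (limma), and 0 of 10 had an unadjusted p under 0.05 beside 3.97% of all genes. The interaction of genotype and memantine had adjusted p of at least 0.947 for each member, 0 of 10 at an unadjusted p under 0.05, and 4.76% of all genes.

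The spread between mice of one group differed among the members. The within-group SD on the log2 scale was 0.29 for Ciart, 0.26 for Per2 and 0.24 for Per1, above 95.5%, 98.8% and 98.7% of genes with a mean within 1.5-fold of theirs. Dbp had 0.17 (91.9%), Nr1d1 0.14 (85.5%), Per3 0.13 (78.9%) and Arntl 0.14 (71.3%). Tef and Nr1d2 had 0.10 each (68.5% and 55.4%). Bhlhe41, with 0.11 (45.8%), was the only member below the median of such genes. WT-Veh replicate 3 was the mouse farthest from its group mean for Per1, Per3, Tef and Ciart, and without it the SD of Per1 was 0.16, that of Tef 0.06 and that of Ciart 0.25.

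Because Dbp and Arntl oppose each other in a running clock, each member was compared with Dbp across the 12 mice after subtraction of the group means, as 9 pairs with exact permutation tests within groups. Arntl was lower where Dbp was higher, with r = -0.82 and rho = -0.79 (exact permutation p = 0.0177 and 0.0154, adjusted 0.160 and 0.139, n = 12). Leaving out KO-Veh replicate 1 and KO-Mem replicate 3, the mice farthest out for Dbp, gave r = -0.73. Over all 12 mice 0.759% of all genes had an r with Dbp of at least the size of -0.82. Per2 and Dbp had r = 0.65 and rho = 0.70 (exact permutation p = 0.0532 and 0.0540, adjusted 0.240 and 0.243, n = 12), and r was 0.76 without the same mice. Without KO-Veh replicate 1 the r of Per2 was 0.86 and without KO-Veh replicate 3 it was 0.82, each with adjusted permutation p = 0.0417, and over all mice left out in turn it ran from 0.52 to 0.86. The other 7 members had adjusted permutation p of at least 0.473 for r over the 12 mice. With all 12 mice and centred values no pair passed after adjustment. Without subtraction of the group means Arntl had r = -0.86 (permutation test over 12 mice, adjusted p = 0.0018). There the mice were permuted across the groups, so differences between groups enter that r and p. Without 1 mouse in turn the centred r of Arntl ran from -0.91 to -0.73 with adjusted permutation p from 0.0417 (without KO-Veh replicate 3) to 0.458. Among 14241 genes with a mean of at least 50, the profiles most like that of Dbp over the 12 mice were those of Atf5 (r = 0.94), Lmod1 (0.93), Lima1 (0.93), Gpsm2 (0.92) and Timm17a (0.92).

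**Figure D5:**
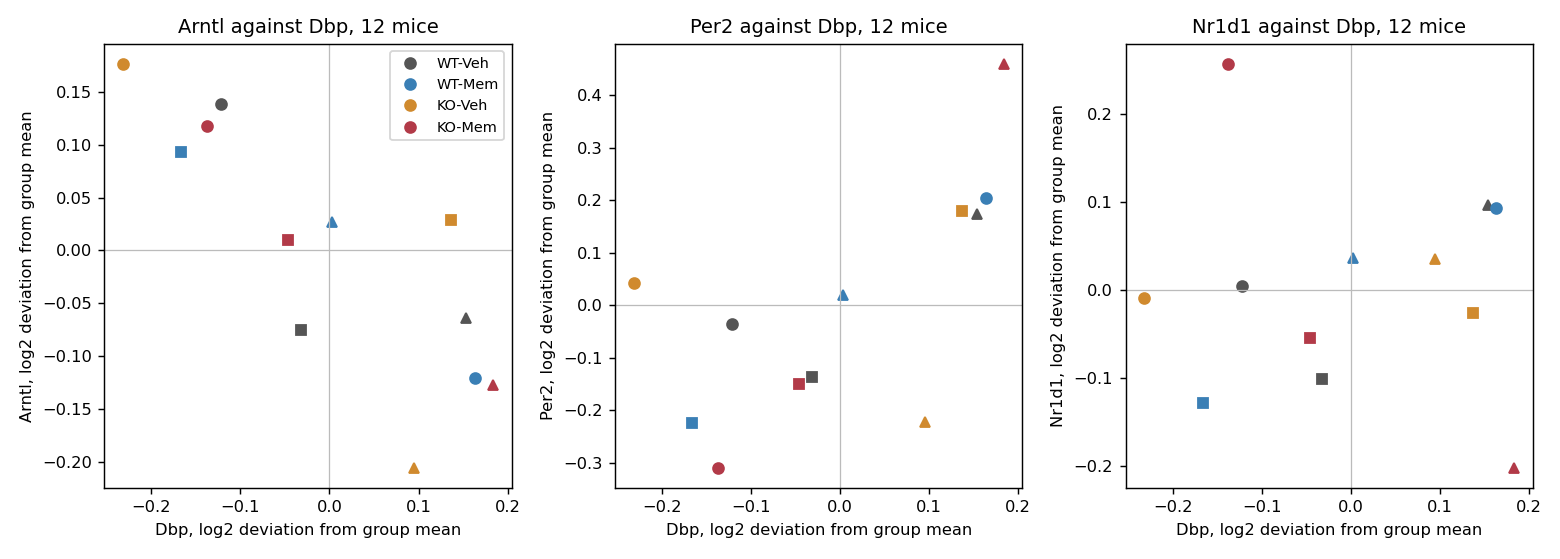
Deviation of Arntl, Per2 and Nr1d1 (y axes) and of Dbp (x axes) from the group mean on the log2 scale, 1 point per mouse (circle, square, triangle for replicates 1, 2, 3). The r with Dbp was -0.82 for Arntl, 0.65 for Per2 and -0.07 for Nr1d1.

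The rest of the pathway was read from 28 other clock genes. Over both treatments 19 had a difference above 0 and 9 below 0 in knockouts (median 0.06, against 0.00 for all genes), and 4 were called, all lower, beside 10.5% of all genes. The share of 4 of 28 was near that background. Cys1 changed by -0.53 (SE 0.13, adjusted p = 0.0232), Wee1, a cell-cycle kinase under E-box control, by -0.26 (SE 0.07, adjusted p = 0.0353), Pdk4, a kinase that restrains glucose oxidation, by -0.28 (SE 0.08, adjusted p = 0.0434) and Rorb, an activator at RREs, by -0.22 (SE 0.06, adjusted p = 0.0446), all by limma. The count of 4 fell to 0 without KO-Veh replicate 3, without KO-Mem replicate 1 and without KO-Mem replicate 2. Those fits called 2.99%, 3.54% and 4.27% of all genes. It rose to 7 without KO-Mem replicate 3, in a fit that called 18.5% of all genes. Of 12 fits without 1 mouse Pdk4 lost its call in 11, Rorb in 9, Wee1 in 8 and Cys1 in 3. Cry2, a partner of the PER proteins, differed by 0.17 (SE 0.05, adjusted p = 0.0585) and Cry1 by 0.03 (SE 0.05, adjusted p = 0.760), by limma. The adjusted p of Cry2 ran from 0.0240 (without KO-Mem replicate 3) to 0.125 over the alternatives, and it was 0.0425 with a replicate block, under which Pdk4 and Rorb were not called. For memantine over both genotypes the difference of Cry1 was 0.21 (SE 0.05, adjusted p = 0.407, limma). Within each genotype its treated mice lay above the untreated ones without overlap. Treated and untreated mice did not overlap, in either direction, for 9.34% of all genes in wild type and 13.9% in knockouts.

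Markers of other cells were read in the same comparison of the genotypes over both treatments. There 6 of 8 oligodendrocyte, 5 of 9 endothelial and mural, 4 of 5 blood, 1 of 8 microglial and 1 of 7 meningeal markers were called, all lower in knockouts, beside 10.5% of all genes. The microglial and meningeal shares are near that background. The summed oligodendrocyte markers ran from 305642 to 419686 in wild-type and from 246069 to 317196 in knockout mice. The summed oligodendrocyte precursor markers ran from 9819 to 10575 in wild-type and from 7066 to 9424 in knockout mice. Sums of the astrocyte, neuron, choroid plexus, and pituitary and pineal markers overlapped between the genotypes. Astrocyte markers had no single direction: Aqp4 differed by -0.48 with vehicle and -0.65 with memantine, Fgfr3 by 0.14 and 0.25. Of 12 glucocorticoid-responsive genes 2 were called, Fkbp5 by 0.65 (SE 0.12, adjusted p = 0.0107, limma) and Hif3a, both higher, a share near the 10.5% of all genes. The list did not go one way, since 3 of the 12 had a difference below 0, among them Tsc22d3 at -0.37 (SE 0.12, adjusted p = 0.0572, limma). KO-Mem replicate 1, the mouse with the highest Nr1d1, had the highest sum, 23715. Markers of the suprachiasmatic nucleus (8 of 9 in the table) summed to between 1679.7 and 2008 per mouse, and of the 6 that could be tested Rgs16 was called lower, at -0.50 (SE 0.11), and Vip higher, at 0.32 (SE 0.08), so the list had no single direction. The part of these in the clock gene values was not tested, and in bulk tissue fewer cells of a type and less RNA per cell cannot be told apart.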

How the data were processed

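RNA-Seq data from 12 mouse brains, 3 per group, were analysed, with groups taken from the sample labels. The deposited signal values are gene-level estimated counts that the authors made with Salmon (1.1.0) on GRCm38, imported with tximport and divided by DESeq2 (1.26.0, R 3.6.2) normalization factors (versions from the submitters' processing notes); they are linear and not whole numbers. Of 19312 genes 19295 matched GENCODE M21, and reads per mouse are not given in the sources used here. Relative depth, taken from the median of the values near 1 in each mouse, was 0.89 to 1.15 of the mean. Because only values in a fixed window around 1 were used, it cannot show a large difference in depth.

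After addition of a pseudocount of 1 the values were log2-transformed and fitted with limma (3.58.1, R 4.3.3; trended prior variance, no covariate) for genes with a mean of at least 10. Pairs of groups were fitted on their own 6 mice, and pooled genotype, pooled memantine and the interaction on 12. P-values were adjusted by Benjamini-Hochberg over all genes tested. The code was tested on simulated data. Python 3.11.15, numpy 2.4.6, pandas 2.3.3 and matplotlib 3.10.9 were used.

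The members and lists were chosen with earlier results of these data known. All 10 members were named; of 28 other clock genes, Clock, Npas2, Cry1, Cry2, those called and the 3 with the smallest p between genotypes; the 5 genes most like Dbp; overlapping genes; and Shank2. Genes named from the marker lists were chosen after their values were seen. Alternatives were a pseudocount of 5, a minimum mean of 50, no filter, no trend, upper-quartile and quantile rescaling, a replicate block, all 12 mice in one fit, and leaving out each mouse. Nothing in the labels says that mice came from separate litters, so p-values measure the spread between these mice.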

Additional observations from a re-analysis of the deposited data

How the results depend on the processing

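Of 957 values recomputed under another setting 934 kept their direction and their side of the threshold, as did 973 of 1116 recomputed without 1 mouse, where 85 changed sign. Signs turned for Per1 (KO-Veh against WT-Veh, -0.00073 with quantile normalization), Dbp (WT-Mem against WT-Veh, -0.011 with upper-quartile rescaling and -0.0085 with quantile normalization) and Bhlhe41 (the interaction, 0.0016 with upper-quartile rescaling), the cause was not tested, and none of these was called. The count of members called between the genotypes over both treatments was 1, Bhlhe41, with a minimum mean of 50 (adjusted p = 0.0452, limma) and with quantile normalization (0.0428). Those fits called 13.2% and 10.7% of all genes. For KO-Mem against WT-Veh the count was 1, Nr1d1, with all 12 mice in one fit (adjusted p = 0.0222, limma). That fit called 11.7% of all genes, in place of 3.37%. Without a trend in the prior variance 1 of the other 28 clock genes was called in place of 4. That fit called 3.79% of all genes, in place of 10.5%. The cause was not tested.

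Equal replicate numbers did not pair the mice: 18 same-number correlations of deviations ran from -0.175 to 0.0802, 36 others from -0.136 to 0.179, and 2 of 12 mice correlated best with their own number. With the replicate block 1 member was called for KO-Mem against WT-Veh (Per2, adjusted p = 0.0490, limma), beside 5.66% of all genes. For the genotypes over both treatments 1 was called (Bhlhe41, adjusted p = 0.0391, limma), beside 9.79% of all genes. There Pdk4 (0.0610) and Rorb (0.0571) lost their calls and Cry2 gained one (0.0425).

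Leaving out each mouse in turn gave these lowest and highest values. For KO-Veh against WT-Veh, Per1 from -0.17 to 0.22, Per3 from -0.10 to 0.0818, Dbp from -0.00441 to 0.18, Tef from -0.072 to 0.10. For KO-Mem against WT-Mem, the count of members called from 0 to 2, Per1 from -0.0849 to 0.13, Nr1d2 from -0.0363 to 0.0757, Ciart from -0.0729 to 0.24. For KO-Mem against KO-Veh, Per3 from -0.0852 to 0.0626, Tef from -0.0426 to 0.0169, Nr1d2 from -0.0812 to 0.0565, Ciart from -0.23 to 0.0817, Bhlhe41 from -0.11 to 0.0274. For WT-Mem against WT-Veh, Per1 from -0.0858 to 0.30, Per2 from -0.11 to 0.10, Dbp from -0.0773 to 0.0875, Tef from -0.13 to 0.0451, Arntl from -0.0646 to 0.0513, Ciart from -0.0485 to 0.28, Bhlhe41 from -0.13 to 0.0121. For KO-Mem against WT-Veh, the count of members called from 0 to 2, Per1 from -0.0671 to 0.32, Per3 from -0.12 to 0.0604, Tef from -0.082 to 0.0946. For WT-Mem against KO-Veh, Per1 from -0.0225 to 0.19, Dbp from -0.18 to 0.0234, Nr1d1 from -0.0604 to 0.0502, Nr1d2 from -0.11 to 0.0307, Arntl from -0.00392 to 0.19. For the genotypes over both treatments, the count of members called from 0 to 2, Per1 from -0.0771 to 0.12, Dbp from -0.0898 to 0.0142, Tef from -0.0112 to 0.0771, Arntl from -0.0403 to 0.0552, the count of other clock genes called from 0 to 7. For memantine over both genotypes, Tef from -0.0708 to 0.0175, Ciart from -0.0738 to 0.11. For the interaction, Per1 from -0.20 to 0.19, Tef from -0.0551 to 0.12, Ciart from -0.34 to 0.000582, Bhlhe41 from -0.0636 to 0.0809. For the correlation with Dbp, Nr1d1 from -0.29 to 0.36, Nr1d2 from -0.0835 to 0.51, Bhlhe41 from -0.10 to 0.30. The counts of 2 of 10 members were without KO-Mem replicate 3, where Per2 and Nr1d1 were called, in fits that called 10.8% of all genes for KO-Mem against WT-Mem, 14.1% for KO-Mem against WT-Veh and 18.5% for the genotypes over both treatments. Where 1 mouse was left out of a group of 3 the fit assumes that the rest vary like the other groups.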
